A study of Macaca mulatta with 2 samples.

Results

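The MAP kinase phosphatases are 10 dual specificity phosphatases of the DUSP family, DUSP1, DUSP2, DUSP4, DUSP5, DUSP6, DUSP7, DUSP8, DUSP9, DUSP10 and DUSP16. They were taken by gene symbol from a table of 33618 genes, and all 10 were present and passed the filter of at least 1 CPM (read counts scaled to an equal library total) in either library, which 18050 genes passed. Membership rests on enzyme class and not on measured values. The study singled out DUSP4 partly from this experiment, so its ratio here is a description and not independent evidence. RNA sequencing was performed on the prefrontal cortex of infant rhesus macaques, and the data analysed here held 1 control library (CON) and 1 sevoflurane library (SEV), both labelled as taken at postnatal day 28. The design had 3 animals in each group, and the libraries of the others were not analysed here. By the labels, sevoflurane, an inhaled anesthetic, was given in the SEV group at 2.5 to 3% for 4 h per exposure. The labels and the study's results section both place the exposures on postnatal days 7, 14 and 28. The study's methods place the later exposures on other days and the harvest immediately after the last one. The handling of the control animals before harvest is not given in the sources used here. With 1 library per group analysed there was no replicate error, so no test was run and every ratio describes these 2 libraries. Exposure, animal, sex and dissection cannot be told apart.

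MAP kinase phosphatases switch off the kinases ERK, JNK and p38 by removing phosphate from both the threonine and the tyrosine of the activation loop. They are usually placed in 3 groups. DUSP1, DUSP2, DUSP4 and DUSP5 are nuclear enzymes made quickly after a stimulus, DUSP6, DUSP7 and DUSP9 are cytoplasmic and act mainly on ERK, and DUSP8, DUSP10 and DUSP16 act mainly on JNK and p38. Several of them are themselves transcribed in response to ERK signalling or neuronal activity, so they form a negative feedback on the pathway that induces them.

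The control library held 16960880 reads and the sevoflurane library 9839105. CPM values were scaled by the TMM method, and each log2 ratio of sevoflurane over control carries a 95% interval, built on exact Clopper-Pearson limits, which covers counting error only. A gene counted as at least 2-fold higher or lower had a log2 ratio of 1 or more in size, with an interval that did not reach equal expression. By this rule 5.47% of all tested genes were lower in SEV and 7.56% were higher. All 8 neuron markers were found in both libraries, with a summed level of 6574 CPM in CON and 6630 CPM in SEV, and 0 of the 8 were at least 2-fold apart. By the interval alone 5 of the 8 lay below equal expression and 2 above, so that sum joins opposite differences. The shares of all tested genes by the interval alone were 28.1% below and 28.4% above. Of the 6 oligodendrocyte markers 5 were at least 2-fold lower in SEV, with a sum of 4056 and 1994 CPM, and of the 6 astrocyte markers 2 were, with a sum of 6083 and 4199 CPM. Of the 6 microglia markers 1 was at least 2-fold higher (221 and 238 CPM in sum), and of the 6 endothelial and mural markers 0 were apart (443 and 470 CPM). By the interval alone 5 astrocyte markers lay below equal expression and 1 above, and 1 microglia marker lay below and 3 above. For the endothelial and mural markers 2 lay below and 1 above, so these sums also join opposite differences. With GAPDH reads as the reference 3 oligodendrocyte markers were at least 2-fold lower. No marker was at 0 in either library. The 7 Y-linked genes summed to 0.179 CPM in CON and 434 CPM in SEV, and the labels speak of animals of both sexes without giving the sex of either. The study's methods describe the controls as all female and the sevoflurane group as 2 females and 1 male. Together these place a female in CON and the male in SEV, so sex differs along with exposure between the libraries. In such bulk tissue, fewer cells of a type and less RNA per cell cannot be told apart, and the part of cell makeup or sex in the values below was not tested.

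Between these libraries, the family divided. DUSP4, DUSP5 and DUSP6 were at least 2-fold lower in SEV, and none of the 10 was at least 2-fold higher. Across all tested genes, 5.47% were at least 2-fold lower and 7.56% at least 2-fold higher by the same rule. By the interval alone, whatever the size of the ratio, 4 members lay below equal expression (DUSP4, DUSP5, DUSP6 and DUSP9), 3 lay above it (DUSP1, DUSP7 and DUSP8) and 3 could not be distinguished from it. Of all tested genes, 28.1% lay below and 28.4% above in this sense. The median log2 ratio of the 10 members was -0.41, and that of all tested genes was -0.0048.

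**Figure D1:**
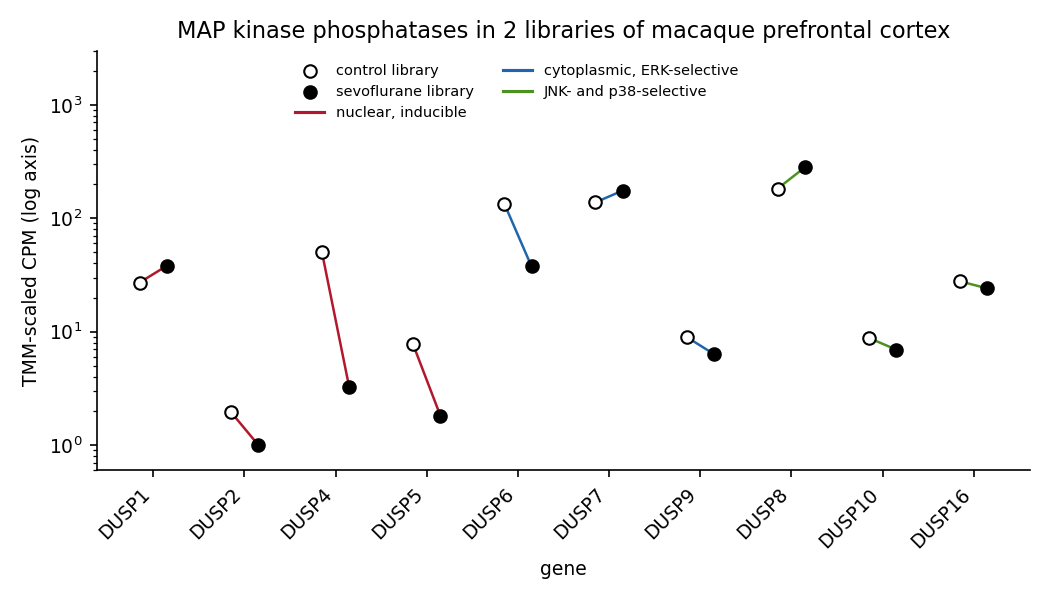
TMM-scaled CPM (log axis) of each of the 10 phosphatases in the control library (open circles) and the sevoflurane library (filled circles), with lines joining the values of 1 gene and coloured by enzyme group. The steepest line is that of DUSP4, from 50.4 to 3.22 CPM, while the lines of DUSP1, DUSP7 and DUSP8 slope upwards. There is 1 library per group, so there are no error bars, and heights of different genes are not corrected for transcript length.

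DUSP4, a nuclear phosphatase that acts on ERK and JNK, had 847 reads in CON and 32 in SEV. Equal expression would have placed 501 reads in SEV. The level was 50.4 CPM in CON and 3.22 CPM after sevoflurane, 15.6-fold lower with an interval of 11.0 to 23.0. The log2 ratio was -3.91 (95% interval -4.52 to -3.46), and 0.0665% of the tested genes had a ratio as low.

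DUSP5 is a nuclear phosphatase that acts on ERK alone and holds it in the nucleus. It had 130 control and 18 sevoflurane reads, or 7.74 and 1.81 CPM. Equal expression would have given 76.8 sevoflurane reads. The log2 ratio was -2.01 (95% interval -2.89 to -1.38), and 1.21% of the tested genes were as low.

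DUSP2, a nuclear phosphatase best known from activated immune cells, was covered by the fewest reads of the 10. It had 33 reads in CON and 10 in SEV, or 1.96 and 1.01 CPM. Its log2 ratio was -0.87, and the interval of -2.15 to 0.09 reached from more than 4-fold lower to just above equal expression, so a difference was not detectable at this depth.

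DUSP1, the remaining nuclear member and a classical immediate early gene that acts on p38, JNK and ERK, went the other way. It had 456 control and 379 sevoflurane reads where 269 would have been equal expression. The level was 27.1 CPM in CON and 38.2 CPM in SEV, with a log2 ratio of 0.49 (95% interval 0.29 to 0.69). DUSP1 and DUSP4 belong to the same enzyme group, and without the prior count their log2 ratios were 4.46 apart (95% interval 3.91 to 5.05). The summed reads of the 4 nuclear members, 1466 and 439, gave 87.2 and 44.2 CPM, a log2 ratio of -0.98 (95% interval -1.14 to -0.83). That sum joins members that differ in opposite directions.

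Among the cytoplasmic members, DUSP6 and DUSP7 differed in direction. DUSP6, the ERK phosphatase that is itself a widely used readout of ERK signalling, had 2268 reads in CON and 373 in SEV. Its level was 135 CPM in CON and 37.6 CPM in SEV, where 1340 reads would have been equal expression. The log2 ratio was -1.84 (95% interval -2.01 to -1.69), a level 3.59-fold lower, and 1.53% of the tested genes were as low.

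DUSP7, also an ERK phosphatase, had 2319 control and 1743 sevoflurane reads. The level was 138 and 176 CPM, with a log2 ratio of 0.35 (95% interval 0.26 to 0.44). Although both enzymes are cytoplasmic and act on ERK, the log2 ratios of DUSP6 and DUSP7 were 2.19 apart (95% interval 2.01 to 2.38).

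DUSP9, an ERK phosphatase encoded on the X chromosome and known for its role in the placenta, had 151 control and 63 sevoflurane reads. Its 8.99 and 6.34 CPM gave a log2 ratio of -0.49 (95% interval -0.95 to -0.07). The interval came close to equal expression, and it included it when the reads of GAPDH served as the reference or when the control library was thinned to the depth of the sevoflurane library. The 3 cytoplasmic members together had 282 CPM in CON and 219 CPM in SEV, a log2 ratio of -0.36 (95% interval -0.44 to -0.29).

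The JNK- and p38-selective members included none that was at least 2-fold apart. At the shares of all tested genes, 5.47% lower and 7.56% higher, so small a group would hold few such genes. DUSP8, a JNK phosphatase known from brain and heart, had 3074 control and 2801 sevoflurane reads. Equal expression would have given 1817 sevoflurane reads. Its level was 183 and 282 CPM, with a log2 ratio of 0.62 (95% interval 0.55 to 0.70), 1.54-fold higher. That was the highest ratio of the family, and 15.2% of the tested genes were as high.

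DUSP10, which acts on JNK and p38, had 148 and 69 reads, or 8.81 and 6.95 CPM, and a log2 ratio of -0.34 (95% interval -0.78 to 0.08). DUSP16, a JNK phosphatase, had 467 and 239 reads, or 27.8 and 24.1 CPM, and a log2 ratio of -0.21 (95% interval -0.44 to 0.02). Neither could be distinguished from equal expression at this depth, although the interval of DUSP16 fell below it when all genes with at least 1 read entered the scaling. In sum the group had 220 CPM in CON and 313 CPM in SEV, a log2 ratio of 0.51 (95% interval 0.44 to 0.58), and DUSP8 supplied most of the reads of that sum.

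**Figure D2:**
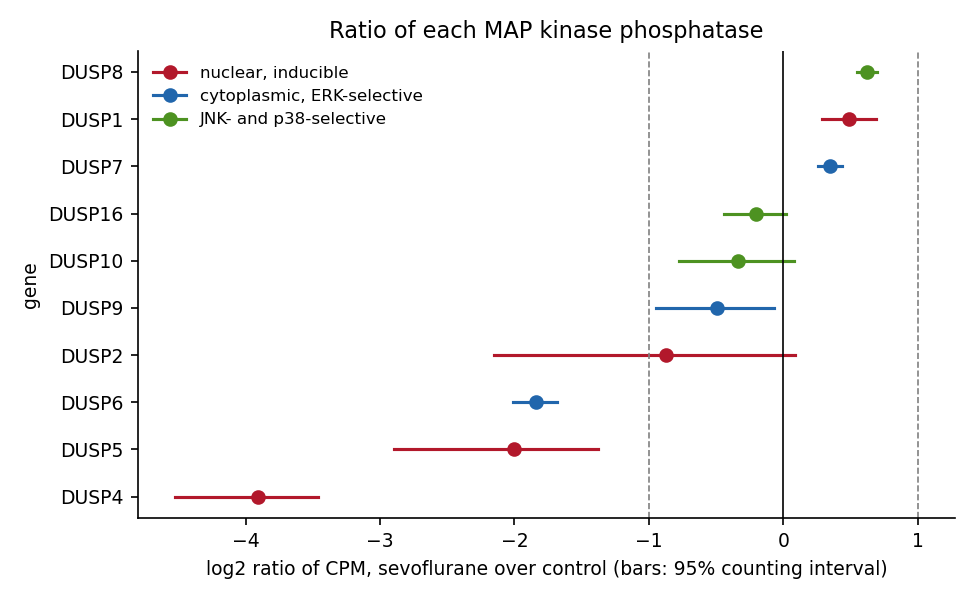
Log2 ratio of CPM in the sevoflurane over the control library for each phosphatase, ordered from lowest to highest and coloured by enzyme group. Bars are 95% counting intervals, and dashed lines mark 2-fold. The bars of DUSP4, DUSP5 and DUSP6 lie wholly below the lower dashed line, and those of DUSP1, DUSP7 and DUSP8 lie between equal expression and the upper one.

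The order of the 10 ratios was examined pair by pair, using the odds ratio of the reads of 2 members, which does not depend on the scaling between libraries. It uses no prior count, so a difference can depart slightly from that of the log2 ratios given above. Of the 45 pairs, 34 differed beyond counting error, with intervals not adjusted for the number of pairs. Of the 9 pairs of neighbours in the order, 2 did. The first was DUSP4 against DUSP5, the next lowest, with a difference of 1.87 on the log2 scale (95% interval 0.91 to 2.80). The other was DUSP16 against DUSP7, with 0.55 (95% interval 0.31 to 0.80), which separates the members at or below equal expression from those above it.

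DUSP5 and DUSP6 were 0.25 apart with an interval of -0.49 to 1.07, so their order is not resolved. DUSP2 could not be placed, since it was not distinguished from DUSP5, DUSP6, DUSP9, DUSP10 or DUSP16. DUSP6 was separated from DUSP9 by 1.34 (95% interval 0.87 to 1.81). At the upper end DUSP7 and DUSP8 differed by 0.28 (95% interval 0.16 to 0.40), and DUSP1 was distinguished from neither.

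**Figure D3:**
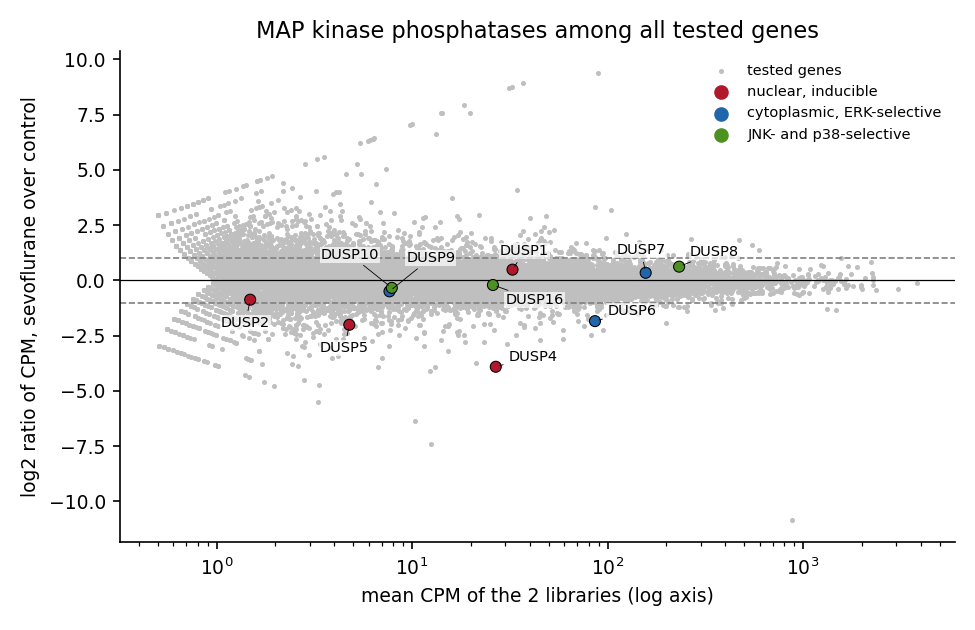
Log2 ratio of sevoflurane over control against the mean CPM of the 2 libraries (log axis) for the 18050 tested genes in grey, with the 10 phosphatases coloured by enzyme group and dashed lines at 2-fold. DUSP4 lies at -3.91, DUSP5 at -2.01 and DUSP6 at -1.84, and the other 7 members lie between the dashed lines.

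The summed level of the family was close in the 2 libraries. The 10 genes had 9893 reads in CON and 5727 in SEV, or 589 and 577 CPM. The log2 ratio of the sum was -0.03 (95% interval -0.08 to 0.02), and it turned to 0.12 with GAPDH reads as the reference. Of 2 pairs chosen after their values were seen, DUSP4 and DUSP6 together were lower by 145 CPM, from 185 to 40.8 CPM. DUSP7 and DUSP8 together were higher by 137 CPM, from 321 to 458 CPM, so the sum hides opposite differences of similar size. Without DUSP4 and DUSP6, the other 8 members summed to 403 CPM in CON and 536 CPM in SEV, a log2 ratio of 0.41 (95% interval 0.36 to 0.46). Since the family sum was close to equal, leaving out the 2 members with the largest drops makes the rest higher by arithmetic. Of the rest, DUSP8 alone was higher by 99.1 CPM.

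The make-up of the family's reads also differed. These shares need no scaling between libraries, but they are shares of reads and not of transcripts, since longer transcripts give more reads. The share of DUSP4 was 8.56% in CON (95% Clopper-Pearson interval 8.02 to 9.13) and 0.559% in SEV (0.382 to 0.788). The share of DUSP6 was 22.9% (22.1 to 23.8) in CON and 6.51% (5.89 to 7.18) in SEV.

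DUSP8 took 31.1% (30.2 to 31.99) of the family's reads in CON and 48.9% (47.6 to 50.2) in SEV, the largest gain of the 10. DUSP7 went from 23.4% to 30.4% and DUSP1 from 4.61% to 6.62%. By enzyme group, the nuclear members took 14.8% and then 7.67%, the cytoplasmic members 47.9% and then 38.05%, and the JNK- and p38-selective members 37.3% and then 54.3%.

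**Figure D4:**
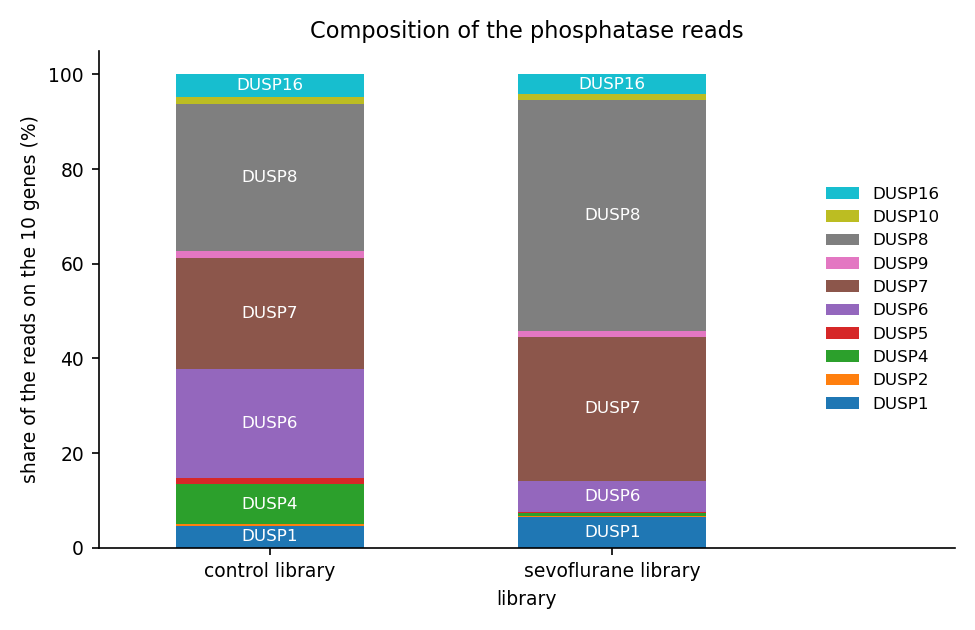
Share of each phosphatase in the reads on the 10 genes, in percent, stacked to 100% for the control and the sevoflurane library. The segments of DUSP6 and DUSP4 shrink from 22.9% to 6.51% and from 8.56% to 0.559%, and that of DUSP8 widens from 31.1% to 48.9%.

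The reads of members that act on JNK were also set against those of the JNK genes, which again needs no scaling. The 3 JNK genes (MAPK8, MAPK9 and MAPK10) had 15309 reads in CON and 8798 in SEV. For every 100 reads on the JNK genes there were 5.53 reads on DUSP4 in CON and 0.364 in SEV. On the same basis DUSP8 had 20.1 reads per 100 JNK reads in CON and 31.8 in SEV, and DUSP1 had 2.98 and 4.31. The other JNK-directed members were closer between the libraries, with 0.967 and 0.784 reads per 100 JNK reads on DUSP10 and 3.05 and 2.72 on DUSP16.

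The genes around the family in the pathway were taken from lists set by their known roles. Of the 9 MAP kinases listed 0 were at least 2-fold apart, with a median log2 ratio of -0.12 that turned to 0.03 with GAPDH reads as the reference. At the shares of all tested genes, 5.47% lower and 7.56% higher, a list this short would hold few such genes. By the interval alone 3 of the 9 lay below equal expression and 1 above. Of all tested genes 28.1% lay below and 28.4% above by the interval alone. MAPK9 (JNK2, -0.59) and MAPK3 (ERK1, -0.37) had the lowest log2 ratios and MAPK10 (JNK3, 0.35) and MAPK7 (ERK5, 0.23) the highest. Of the 7 kinases that activate them 0 were at least 2-fold apart, from MAP2K1 at -0.58 and MAP2K4 at -0.39 to MAP2K5 at -0.02 and MAP2K7 at 0.06. The intervals of 4 of the 7 lay below equal expression and 0 above, or 2 below and 1 above with GAPDH reads as the reference.

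Other phosphatases did not show differences of the size seen for DUSP4. The atypical dual specificity phosphatases share the catalytic fold but mostly lack the docking domain for MAP kinases. The table held 16 of them, and 15 were tested. Of these 0 were at least 2-fold apart, beside 5.47% lower and 7.56% higher of all tested genes. By the interval alone 5 lay below equal expression and 2 above, beside 28.1% below and 28.4% above of all tested genes. Their median log2 ratio was -0.09, or 0.06 with GAPDH reads as the reference. They ranged from DUSP19 (-0.78, with 57 and 19 reads) and DUSP13 (-0.71, with 21 and 7 reads) to DUSP11 (0.42, with 505 and 401 reads) and STYXL1 (0.97, with 10 and 13 reads). DUSP21 had 0 reads in both libraries, which allows up to 0.179 CPM in CON and 0.302 CPM in SEV at the floor of 3 reads.

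Of the 6 other phosphatases tested that act on MAP kinases 0 were at least 2-fold apart. The shares of all tested genes by that rule were 5.47% lower and 7.56% higher. By the interval alone 2 lay below equal expression and 1 above, beside 28.1% below and 28.4% above of all tested genes. With GAPDH reads as the reference 2 lay below and 3 above. PTPN5, the striatal-enriched tyrosine phosphatase of neurons, had the highest log2 ratio at 0.46 (2291 and 1857 reads), followed by PPM1A at 0.08. The catalytic subunits of protein phosphatase 2A had the lowest, PPP2CB at -0.74 and PPP2CA at -0.41.

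The next list held genes that ERK signalling induces, several of which feed back on it. Of 14 tested genes 5 were at least 2-fold lower and 2 at least 2-fold higher, with a median log2 ratio of -0.82. For all tested genes the shares were 5.47% lower and 7.56% higher. The 5 were all Sprouty or SPRED genes, inhibitors of signalling from growth factor receptors to ERK. SPRY1, another Sprouty gene of the list, was not distinguished from equal expression (282 and 142 reads, log2 ratio -0.23, 95% interval -0.53 to 0.07). SPRED3 had 1133 control and 214 sevoflurane reads (log2 ratio -1.64) and SPRED2 had 3407 and 748 (-1.43). SPRY2 (-1.10), SPRY4 (-1.03) and SPRED1 (-1.01) lay just beyond 2-fold, and 2 of the 5 (SPRED2 and SPRED3) still passed with GAPDH reads as the reference. The 2 higher genes were the transcription factor ETV4 (164 and 228 reads, 1.22) and the stress-induced gene IER3 (10 and 26 reads, 1.89).

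Neuronal activity quickly induces a set of early response genes, most of them transcription factors. Of 14 tested genes 6 were at least 2-fold lower and 1 was at least 2-fold higher, with a median of -0.86. Across all tested genes 5.47% were lower and 7.56% higher by this rule. The 6 were NPAS4 (-4.12), NR4A3 (-2.86), EGR2 (-2.48), FOS (-2.34), FOSB (-2.22) and EGR4 (-2.05). BTG2, a growth-suppressing gene, was at 1.23 and JUND at 0.98. Both this list and the phosphatases held genes on each side of equal expression.

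**Figure D5:**
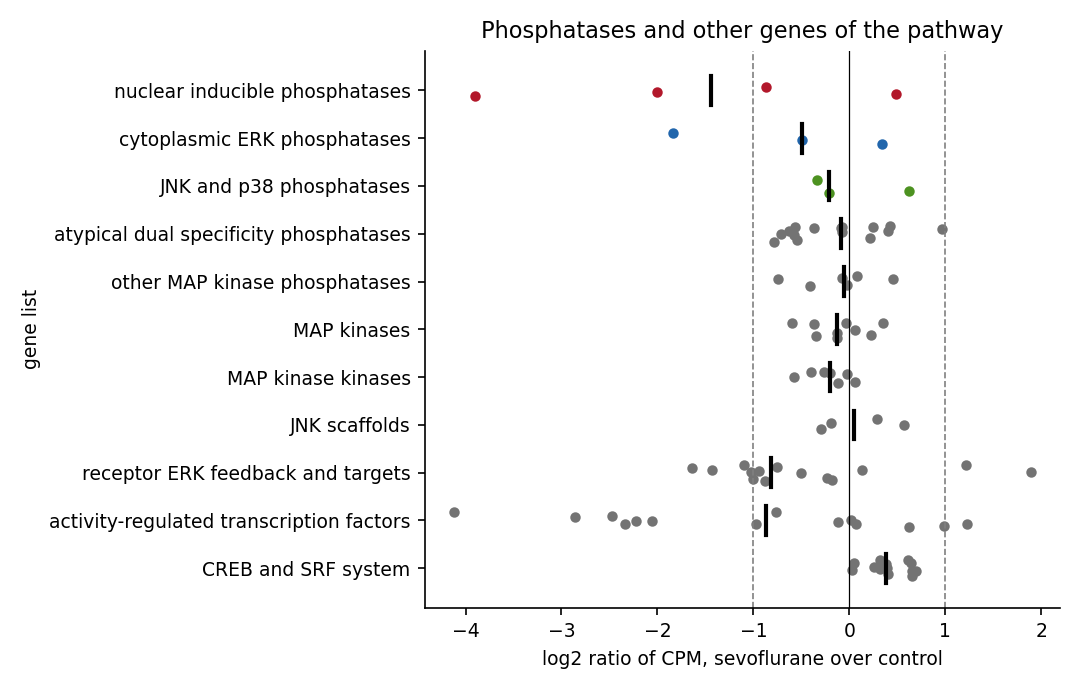
Log2 ratio of sevoflurane over control for each tested gene (points, spread vertically for display) of the 3 phosphatase groups in colour and of 8 other lists of the pathway in grey, with the median of each list as a black bar and dashed lines at 2-fold. The points of the kinase and the other phosphatase lists all lie within 2-fold, and points below -2 appear in the nuclear phosphatases and the activity-regulated transcription factors.

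The genes with values most like those of DUSP4 were looked for in the 12989 genes whose mean was 5 CPM or more, by the distance of their log2 CPM over the 2 libraries. CAMK1G, a calcium/calmodulin-dependent kinase gene, was the nearest, with 668 control and 28 sevoflurane reads (log2 ratio -3.75, distance 0.39). It was followed by RBP4, a retinol-binding protein gene (547 and 46 reads), BAIAP3 (690 and 57 reads), LOC100423399 (465 and 29 reads) and EGR2 (492 and 51 reads). With 2 libraries, this likeness says only that both levels were similar.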

How the data were processed

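Prefrontal cortex RNA was sequenced in a design with 3 control and 3 sevoflurane-exposed macaques, of which 1 library per group was analysed here. The values the authors deposited are raw, whole-number counts of reads per gene. HISAT2 2.0.4 is listed in the submitters' processing notes, and the counting tool, genome build, annotation and treatment of reads matching several genes are not given in the sources used here, so no coordinates or sequences are given. Samples were grouped by their titles.

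The 18050 genes that reached 1 CPM in a library were scaled by TMM (edgeR 4.0.16, R 4.3.3), and log2 ratios used a prior count of 2. Folds and CPM used no prior count. Intervals of ratios and shares are exact Clopper-Pearson limits (scipy 1.17.1, Python 3.11.15, numpy 2.4.6, pandas 2.3.3). Pair differences are sample odds ratios of the reads on the log2 scale, and their intervals came from the conditional odds ratio. Plots were drawn with matplotlib 3.10.9. The procedure was tested on simulated data. No molecular identifiers are mentioned, so intervals and floors (3 reads, or 0.179 and 0.302 CPM) cover counting error only.

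Every member is named. Of each pathway list, the 2 highest and 2 lowest tested genes and those at least 2-fold apart are named, and so are the 5 genes nearest to DUSP4. SPRY1 is named besides, as a further Sprouty gene. The markers are given as sums. An item of the pathway lists is not reported here. Members, lists and rules were chosen with earlier results of these data known. Levels were not compared between genes per length, and promoter motifs were not searched, because no transcript lengths or sequences were used here. Alternatives were other scalings (DESeq2 1.42.0 size factors, library totals, upper quartile, GAPDH reads, neuron marker reads), 0.5 as the prior count, a filter at 1 read or at 5 CPM, the control library thinned, a fold limit of 1.5 or 4, and intervals at 99.9%.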

Additional observations from a re-analysis of the deposited data

How the results depend on the processing

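The count of phosphatases at least 2-fold lower was 3 under every scaling, prior count, filter, depth and interval run, and 2 at a threshold of 4-fold, which DUSP6 did not reach. The count at least 2-fold higher was 0 except at 1.5-fold, where 1 member (DUSP8) passed. Across all genes, 606 were higher and 474 lower with the filter of 5 CPM, which tests fewer genes and leaves out DUSP2. These numbers were 2604 and 2141 at 1.5-fold, and 352 and 221 at 4-fold. Each member kept the sign of its log2 ratio, and 87 of 89 alternative values stayed within the counting interval. The exceptions were DUSP7 (0.50) and DUSP8 (0.78) with GAPDH reads as the reference, which shifted all ratios by 0.15. DUSP4 ranged from -3.95 to -3.76, DUSP5 from -2.08 to -1.86 and DUSP6 from -1.86 to -1.69. Leaving DUSP1 out of the family sum moved 5 of 18 shares beyond their interval. It brought DUSP8 to 32.6% in CON and 52.4% in SEV. The 10 control shares stayed within their intervals when that library was thinned.

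No paired analysis was possible because CON and SEV hold 1 library each, and for that reason no replicate was left out. The comparison of levels per length was not run. The sevoflurane library's depth limits DUSP2 (10 reads) and DUSP5 (18 reads) most.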

Other observations

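The transcription factors and coactivators through which calcium and ERK signals reach genes, CREB and SRF with their partners, lay slightly above equal expression. Of 14 tested genes 0 were at least 2-fold apart, but 11 had an interval above equal expression and 0 below it, with a median log2 ratio of 0.39. Of all tested genes, 28.4% had an interval above and 28.1% below. By the 2-fold rule 5.47% of all tested genes were lower and 7.56% higher. CRTC2, a CREB coactivator (0.70, with 306 control and 294 sevoflurane reads), and ELK1, an SRF partner that ERK phosphorylates (0.65, with 955 and 889 reads), had the highest values. EP300 (0.03) and MKL2 (0.05) had the lowest. Of the 4 JNK scaffolds 0 were at least 2-fold apart. At the shares of all tested genes, so short a list would hold few such genes. MAPK8IP1 (-0.19) and MAPK8IP2 (-0.30) were lower and MAPK8IP3 (0.29) and ARRB2 (0.57) higher, each with an interval that excluded equal expression, although that of MAPK8IP1 included it with GAPDH reads as the reference.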
